A study of Mus musculus with 26 samples.

Results

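The 9 genes described here are used to recognise lung group 2 innate lymphoid cells (ILC2s) that take on properties of ILC1s or ILC3s. They are the transcription factors Tbx21, Eomes and Ahr, the cytokines Ifng, Il17a and Il22, and the cytokine receptor chains Il12rb1, Il12rb2 and Il23r. The genes were chosen by name, each was matched to a count table row through the symbol of its Ensembl ID, and all 9 were present among 55401 rows. In the first of 2 experiments, ILC2s were sorted from the lungs of unchallenged wild-type female mice of 8 to 16 weeks, 3 C57BL/6J and 3 CC030GeniUnc (CC030), as lineage-negative CD90+ CD127+ CD25+ ICOS+ cells, and lysed without culture. The CC030 line belongs to the Collaborative Cross, a panel of inbred lines bred from several founder strains. In the second, lineage-negative CD90+ CD127+ ST2+ lung ILC2s of 5 CC030 mice were cultured, every well with IL-33 and TSLP at 10 ng/mL each and human IL-2 at 100 U/mL. Cells of each mouse received DMSO vehicle or 10 µM AR420626, an agonist of the short-chain fatty acid receptor FFAR3, and were harvested at day 2 or day 6, which gave 4 groups of 5 libraries.

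ILC2s depend on GATA3 and release the type 2 cytokines IL-5 and IL-13. IL-12 signals through a receptor made of the Il12rb1 and Il12rb2 chains and through STAT4, and can turn ILC2s into interferon gamma producers that express T-bet, the product of Tbx21. IL-23 uses the same Il12rb1 chain together with Il23r and signals mainly through STAT3, and with IL-1 it favours the ILC3 program, which includes Il17a. AHR is a ligand-activated transcription factor that maintains ILC3s and Il22, while Eomes is characteristic of natural killer (NK) cells. The question put to the 9 genes is whether resting or cultured ILC2s carried transcripts of either alternative program.

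The genes lie on 7 mouse chromosomes in GENCODE vM21 on GRCm38. The factor genes are Tbx21 at chr11:97098071-97115331, Eomes at chr9:118478212-118486132 and Ahr at chr12:35497974-35535038. The cytokine genes Ifng and Il22 are neighbours at chr10:118441046-118445892 and chr10:118204942-118210047, and Il17a is at chr1:20730905-20734496. Il23r and Il12rb2 are neighbours as well, at chr6:67422932-67491855 and chr6:67291318-67376188, and Il12rb1 is at chr8:70808449-70821424.

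The values are raw counts per gene, and the strains are not on one footing. Counts in genes came to between 13533363 and 15234305 per C57BL/6J library, spread over 15946 to 16553 rows with a count. Naïve CC030 libraries held 1324595 to 1524751 counts over 43527 to 46111 rows, and cultured libraries held 227445 to 5320028 counts. CC030 reads were aligned by the authors to an mm9 pseudogenome and converted to mm10 positions, whereas C57BL/6J reads were aligned to mm10. All 14 ILC2 markers had a count in all 3 C57BL/6J libraries, where Gata3 had 2563, 2997 and 4559 counts. Gata3 had 25, 7 and 18 counts in the naïve CC030 libraries, in which 12 of the 14 ILC2 markers were lower by the strain test given below. That test called 12.2% of all rows lower. All 14 markers also had a count in all 3 naïve CC030 libraries, where 43527 to 46111 rows had one. By level, and not by presence, the labelled cell type was therefore borne out by its markers in C57BL/6J and not in CC030. CC030 counts are described below as counts listed under a symbol.

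Naïve C57BL/6J ILC2s had almost none of the 9 transcripts apart from Ahr and a low level of Il12rb1. Ahr was present at 312, 186 and 463 counts in libraries 1, 2 and 3, which is 32.7 ± 10.1 CPM (SD, n = 3) after TMM scaling, where CPM is counts scaled to 1000000 per library. Per kilobase of exon Ahr stood at 6.05, 3.43 and 6.44 CPM, between the 72.6th and 78.3rd percentile of protein-coding genes, those at 0 included. Library 2 was the lowest of the 3.

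Il12rb1, the chain shared by the IL-12 and IL-23 receptors, had 16, 20 and 71 counts, or 3.42 ± 2.31 CPM (SD, n = 3). Library 3 was the highest for both genes and it also held lung and myeloid transcripts. Sftpc, which encodes a surfactant protein of alveolar epithelium, had 1, 4 and 172153 counts, and the myeloid lysozyme gene Lyz2 had 1, 167 and 14729 counts. Without library 3 the mean was 29.2 CPM for Ahr and 2.09 CPM for Il12rb1, so that Il12rb1 was the more affected. The part of those cells in the 2 values was not tested. In bulk libraries such as these, fewer positive cells and less RNA per cell cannot be told apart.

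The partner chains were not detected beyond 1 library. Il12rb2, which completes the IL-12 receptor, had 0 counts in all 3 libraries. Il23r, which completes the IL-23 receptor, had 14, 0 and 0 counts, so that 1 library alone carried it. Library 1 was also the highest for the T cell genes Trac (786, 210 and 1 counts), Cd3d (1270, 57 and 23) and Cd4 (91, 1 and 0). Cd3g was highest in library 2 (7286, 10585 and 4890), and Cd8a, Cd8b1 and Cd5 were at 0 in all 3. The part of T cells in the Il23r counts was not tested.

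The other ILC1 genes were also at 0 in every C57BL/6J library. They were Tbx21, Eomes and Ifng. Among the ILC3 cytokines, Il17a and Il22 were at 0 as well. In all, 6 of the 9 genes had no count in any of the 3 libraries, beside 35.5% of 21897 protein-coding genes. Taking 3 counts per library as the limit that a count of 0 allows, each of the 6 lay below a mean of 0.319 CPM, which covers counting error only.

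**Figure D1:**
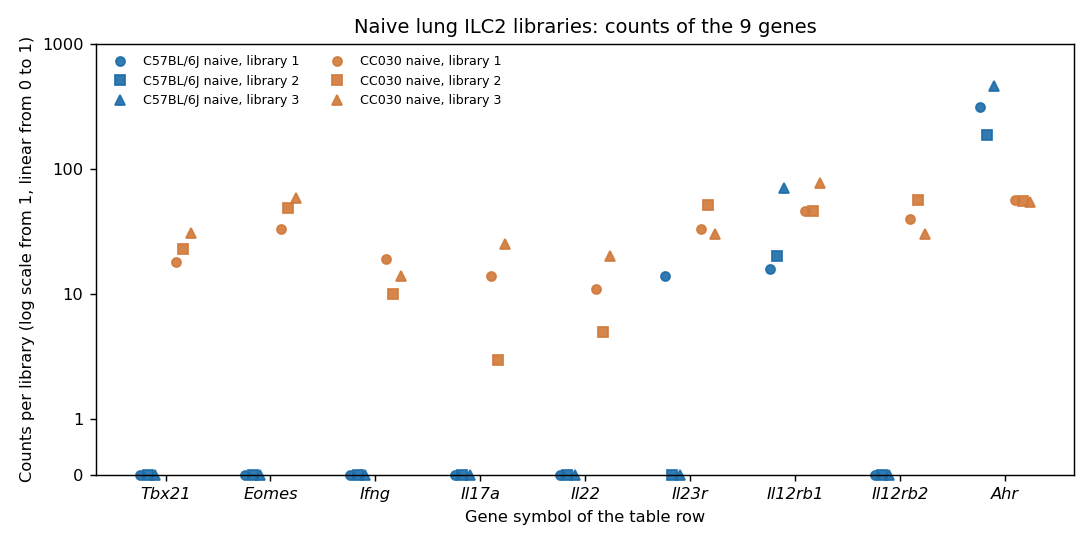
Counts of the 9 genes in each naïve library (vertical axis, logarithmic from 1 upwards and linear from 0 to 1), with C57BL/6J libraries in blue and CC030 libraries in orange and a marker shape for each library number. In C57BL/6J, 6 genes sit at 0 in all 3 libraries and Ahr lies between 186 and 463 counts, whereas all 9 CC030 rows hold between 3 and 77 counts.

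The signaling machinery around these genes was nevertheless present in C57BL/6J. Stat4, the transducer of IL-12, had 1764, 1133 and 2172 counts, and Jak2, a kinase of both receptors, had 2171, 1918 and 1400. Il18rap, the accessory chain of the IL-18 receptor, had 377, 735 and 281 counts, while its partner chain Il18r1 had 35, 5 and 0. Of the 17 genes listed for IL-12, IL-23 and interferon gamma signaling, 12 had a count in all 3 libraries and 1, Il12rb2, was at 0 in all. At 0 in all 3 were 35.5% of protein-coding genes. The list was thus mostly present, with Il12rb2, Il23r and Il18r1 among the 5 genes missing from at least 1 library.

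NK cell and ILC1 genes were mostly undetected. Of the 27 genes of that program 14 were at 0 in all 3 C57BL/6J libraries and 7 had a count in all 3. Among protein-coding genes 35.5% were at 0 in all 3. Of the 8 defining NK cell and ILC1 markers, 7 were at 0 in all 3 libraries, and the exception was Itga1, an integrin chain, with 11 counts in library 3. The T-box factor genes and the cytotoxic genes Prf1, Gzma and Gzmb were therefore all undetected at this depth.

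The ILC3 list was split. The ILC3 genes Ccr6, a chemokine receptor, and Il17f, a cytokine, were at 0 in all 3 C57BL/6J libraries. So were 35.5% of protein-coding genes. Of 20 genes in the ILC3 and type 17 program, 12 had a count in all 3 libraries and 5 were at 0 in all. The former include genes that ILC2s share, such as Ltb, a lymphotoxin chain, with 32433, 40613 and 38755 counts, and Kit, the stem cell factor receptor, with 2786, 2144 and 1816 counts. Because the letters AGGTCA are bound by many nuclear receptors, the 250 bases before the start sites of the 2 ILC3 genes whose promoters hold them are shown, from RefSeq on GRCm38.p6, read 5′ to 3′ on each gene's own strand. The capitals mark AGGTCA or its reverse complement TGACCT. The first region is chr1:20730655-20730904 on the plus strand and the second is chr6:67491856-67492105 on the minus strand.
Il17a: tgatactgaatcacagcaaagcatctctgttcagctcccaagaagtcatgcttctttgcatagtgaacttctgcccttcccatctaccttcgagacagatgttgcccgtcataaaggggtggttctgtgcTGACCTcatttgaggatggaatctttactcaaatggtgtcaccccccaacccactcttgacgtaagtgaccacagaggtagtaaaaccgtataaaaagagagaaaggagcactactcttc
Il23r: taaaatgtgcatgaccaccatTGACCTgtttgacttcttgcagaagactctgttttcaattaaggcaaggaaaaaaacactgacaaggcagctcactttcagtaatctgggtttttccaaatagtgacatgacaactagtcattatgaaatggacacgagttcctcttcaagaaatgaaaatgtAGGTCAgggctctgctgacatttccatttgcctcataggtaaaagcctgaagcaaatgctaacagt

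The Il17a promoter held 1 match, 120 bases before the start, and the Il23r promoter held 2, at 66 and 229 bases before it. The same letters occurred in 14.0% of 32851 promoters of this length, and a match is not by itself a binding site. The T-box core GTGTGA, or TCACAC on the other strand, was found in 12.3% of them and among the 9 genes in Il12rb2 only, where it lay 80 bases before the start. The motifs do not overlap each other. Promoters of 7 of the 9 genes were in the table, Il12rb1 and Ahr being the others.

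AHR signaling genes were divided in the same way. Tiparp, a target of AHR that restrains it, had 2295, 1180 and 1316 counts. Arnt, the dimer partner of AHR, had 3, 231 and 91 counts. The classic AHR targets Cyp1a1 and Cyp1b1, which encode xenobiotic-metabolising enzymes, and Nqo1, a quinone reductase, had no count in any C57BL/6J library, and the AHR repressor gene Ahrr had 1, 0 and 0. Thus 6 of the 10 genes of the AHR pathway had a count in all 3 libraries and 3 were at 0 in all. The share of protein-coding genes at 0 in all 3 was 35.5%.

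All 9 rows had a count in each naïve CC030 library. Tbx21 had 18, 23 and 31 counts, Eomes 33, 49 and 59, and Ifng 19, 10 and 14. Il12rb2 had 40, 57 and 30 counts and Il12rb1 46, 46 and 77. On the ILC3 side Il23r had 33, 52 and 30 counts, Il17a 14, 3 and 25, and Il22 11, 5 and 20. Ahr had 57, 56 and 55. The median of the 9 rows fell between the 53.7th and 64.6th percentile of all rows per exonic kilobase in the 3 libraries, with Il17a at 3 counts the lowest value and Il12rb1 at 77 the highest.

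By edgeR's quasi-likelihood test with Benjamini-Hochberg adjustment over 35551 rows, 8 of the 9 were higher in CC030 and none was lower. The same test called 64.1% of all rows higher and 12.2% lower, with a median log2 difference of 7.03, so that a higher value in CC030 was the usual outcome for a row. The mean CPM under Tbx21 in CC030 was 34.0 times the C57BL/6J limit of 3 counts per library, and under Eomes 66.6 times. The edgeR adjusted p was 0.00046 for both, and it belongs to the fitted difference and not to these ratios. The 6 genes at 0 in every C57BL/6J library passed the filter on low counts through CC030 alone. A call on them could only be higher in CC030, so their calls and adjusted p add no support. Against the same limit the mean was 20.8 times for Ifng, 19.9 for Il17a, 17.1 for Il22 and 60.8 for Il12rb2. Their adjusted p in edgeR was at most 0.00165. The ratios bound the C57BL/6J side only. In CC030 library 2 Il17a was at 1.34 CPM and Il22 at 2.23 CPM, beside CC030 means of 6.36 and 5.44 CPM.

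Il12rb1 was higher in CC030 by 2.89 ± 0.74 on the log2 scale (SE; edgeR adjusted p = 0.00735), below the median of all rows. Il23r was higher by 4.95 ± 1.62 (SE, edgeR adjusted p = 0.0238). The call was lost when CC030 library 1, 2 or 3 was left out (edgeR adjusted p 0.0620, 0.0775 and 0.0666), while the value moved little, to 4.99, 4.68 and 5.11. The size rested on the 14 counts of C57BL/6J library 1. Without that library Il23r is at 0 in C57BL/6J and the fitted value of 9.46 (edgeR adjusted p = 0.000791) depends on the prior count, and without C57BL/6J library 2 or 3 it was 4.10 and 4.00. Ahr did not pass the test, at −0.35 ± 0.51 (SE, edgeR adjusted p = 0.548), and its CPM overlapped between the strains. The sign of the Ahr value changed under other scalings.

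Genes at 0 in C57BL/6J and present in CC030 were not particular to these programs. Of all protein-coding genes at 0 in the 3 C57BL/6J libraries, 83.7% had a count in all 3 CC030 libraries, with a median of 20.3 counts per library. In CC030 26 of the 27 genes of the ILC1 and NK cell program had a count in all 3 libraries. Of the 24 tested, 15 were higher in CC030 and 2 lower, those being Stat4 and the chemokine gene Ccl5. Over all rows 64.1% were called higher and 12.2% lower, and the lists that follow are to be read beside these shares. Genes of any list at 0 in C57BL/6J entered the test through CC030 alone and could only be called higher. Of 19 tested genes of the ILC3 and type 17 program, 9 were higher and 5 lower, the latter including Ltb and Kit. In the AHR list 4 were higher, among them Cyp1a1 and Ahrr, and 4 lower, among them Tiparp. In the list for IL-12, IL-23 and interferon gamma signaling 6 of 17 were higher and 5 lower, the latter including Jak2 and Stat4.

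Whether CC030 counts under these symbols came from the annotated gene was examined through their neighbours. For each gene, levels of the other genes within 4 Mb to each side in CC030 were correlated across genes with C57BL/6J levels at positions moved by up to 3000 kb in steps of 1 kb. Genes in a window are not independent and share the same libraries, so the correlations are a description. In naïve CC030 no shift stood apart for any of the 9, where standing apart means an r at least 0.1 above that at any shift more than 25 kb away, a margin chosen after the values were seen. At no shift r lay near 0 for every gene, between −0.11 for Il12rb1 and 0.15 for Ahr.

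In vehicle cultures at day 6 a shift stood apart for 5 of the 9 genes. Around Eomes r was 0.64 at +91 kb, against at most 0.34 elsewhere and 0.0026 at no shift. Around Tbx21 r was 0.55 at +139 kb, against 0.35 elsewhere and 0.067 at no shift. Both shifts were also the best in AR420626 cultures at day 6. In the vehicle cultures both stood apart with genes at higher coordinates alone. With genes at lower coordinates alone the best shifts were −1200 kb for Eomes and −2722 kb for Tbx21, and neither stood apart. For Ifng and Il22, which are neighbours on chromosome 10, r was 0.59 at +563 kb against 0.38 elsewhere, and in AR420626 cultures at day 6 the best shift was +572 kb. Around Il12rb1 r was 0.50 at −2525 kb against 0.40 elsewhere. No shift stood apart for Il23r (best +75 kb), Il12rb2 (+74 kb), Il17a (−2742 kb) or Ahr (+2054 kb). Around Il17a r was 0.42 at no shift, the highest such value of the 9 genes in these libraries, and 0.66 at the best shift.

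**Figure D2:**
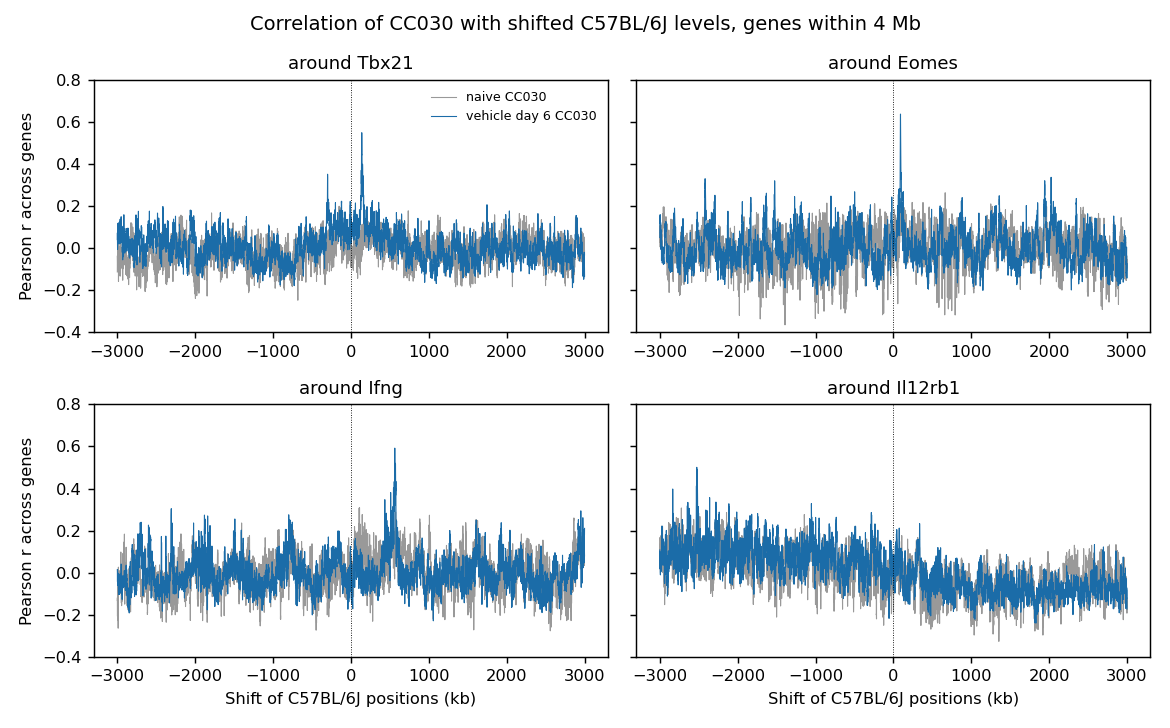
Pearson r across genes (vertical axis) between CC030 levels and C57BL/6J levels at positions moved by the shift on the horizontal axis in kb, for genes within 4 Mb of Tbx21, Eomes, Ifng and Il12rb1; grey lines are naïve CC030 and blue lines vehicle cultures at day 6. Blue peaks stand at +139, +91, +563 and −2525 kb, and at 0 kb, the dotted line, no peak is seen.

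A positive shift means that CC030 counts under a symbol went with C57BL/6J levels at a higher coordinate. Moved by its shift, Eomes lies on Golga4, a Golgi protein gene with 572, 561 and 207 counts in C57BL/6J. Tbx21 moved by its shift lies on Npepps, a cytosolic aminopeptidase gene with 174, 11 and 43 counts there. Il12rb1 moved in the same way lies on Sh2d4a, which was at 0 in C57BL/6J. No gene was annotated at the moved positions of Ifng and Il22. Il12rb2 and Il23r are neighbours on chromosome 6, and Il12rb2 moved by its best shift lies on Il23r. Moved by the opposite amount, Il12rb2 lies on Serbp1, an mRNA-binding protein gene with 5203, 5455 and 8422 counts in C57BL/6J. Whether a shift holds at the gene itself was not tested, nor was the part of such shifts in any difference below.

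During vehicle culture the row of Il23r fell and the rows of Ifng and Il22 dropped to or near 0 counts. Il23r stood at 44.9, 11.1, 21.6, 35.8 and 13.5 CPM at day 2 in mice 1 to 5. At day 6 Il23r stood at 11.4, 5.86, 1.06, 0 and 0.981 CPM in the same mice, lower in 5 of 5. Il23r fell by 2.93 ± 0.70 on the log2 scale (SE, n = 5 mice; edgeR with mouse as a block, adjusted p = 0.00842). Of the 5 genes that entered this test among the 9, Il23r was the 1 called lower and none was called higher, beside 3.73% of 15819 rows called lower and 13.6% called higher. Without mouse 1, the highest of the day 6 libraries, Il23r was too low to enter the test, and with each other mouse left out it was called, at −4.01 to −2.33 (edgeR adjusted p at most 0.0485).

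Eomes was at 6.48, 8.61, 7.19, 16.4 and 50.5 CPM at day 2 and at 45.6, 38.5, 26.4, 56.5 and 16.7 CPM at day 6 with vehicle. Mice 1 to 4 were higher at day 6 and mouse 5 was lower. The difference was 1.49 ± 0.60 on the log2 scale (SE, edgeR adjusted p = 0.0946), which did not pass the test, and without mouse 5 it was 2.30 (edgeR adjusted p = 4.07e-05). The day 2 vehicle library of mouse 5 held 5320028 counts and 12.3% of its uniquely aligned reads in genes, the highest of the 20 cultured libraries.

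Ifng had 8, 10, 10, 17 and 4 counts at day 2 and 0 in all 5 vehicle libraries at day 6. Il22 had 12, 10, 16, 10 and 0 counts at day 2 and 0, 2, 0, 0 and 0 at day 6. Il17a went from 10, 8, 7, 6 and 0 counts to 4, 0, 0, 0 and 2. These 3 cytokine rows and that of Tbx21 reached the filter's limit in too few libraries of the 2 days to enter the test. With no filter on low counts the difference of Ifng was called (adjusted p = 0.0229 by edgeR). Il12rb1 was lower at day 6 in 5 of 5 mice, by 1.26 ± 0.60 on the log2 scale, and did not pass (SE, edgeR adjusted p = 0.155). Il12rb2, at −0.16 ± 0.62, and Ahr, at −0.90 ± 0.70 (SE), did not pass either.

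Some other genes of the same programs were called from day 2 to day 6 with vehicle, to be read beside the 13.6% of all rows called higher and 3.73% called lower. In the ILC1 and NK cell program 5 of 14 tested were higher and none lower. They included Klrb1c, an NK cell receptor, by 3.28 ± 0.54, the chemokine receptor gene Cxcr3 by 2.71 ± 0.61, Il18r1 by 2.71 ± 0.79 (log2, SE) and the granzyme gene Gzmb. Genes of the 27 that were too low to test went either way. Prf1 went from 8, 28, 22, 19 and 8 counts to 2, 8, 0, 6 and 3. Xcl1 went from 2, 4, 0, 7 and 0 counts to 6, 6, 3, 0 and 1. In the ILC3 and type 17 program 2 of 14 were higher, Ltb and Il21r, and 2 were lower, Il23r and the IL-1 receptor gene Il1r1 (−2.33 ± 0.52). In the AHR pathway 3 of 8 were higher, among them Arnt and Ptges3. Of 16 tested genes of IL-12, IL-23 and interferon gamma signaling, 4 were higher and 3 lower, the latter including Tyk2, a kinase of both receptors. The summed level of the 8 NK cell and ILC1 markers, which include Eomes, was 65.2 to 124 CPM at day 2 and 121 to 187 CPM at day 6, and that of the 5 ILC3 markers, which include Il23r and Il22, was 35.2 to 68.5 and 19.5 to 51.9 CPM. The 8 markers did not move together. Klrb1c was called higher, whereas Itga1 went from 78, 137, 102, 89 and 52 counts to 28, 34, 28, 42 and 27 and was not called. Lung markers were called in the same comparison. Of 6 genes of lung epithelium, stroma and endothelium, Scgb1a1, a club cell secretory protein gene, was higher by 2.89 ± 0.72 and Sftpc by 2.17 ± 0.58, and the collagen gene Col1a1 was lower, at −1.96 ± 0.49 (log2, SE; edgeR adjusted p = 0.0101, 0.0156 and 0.0104), with the sum of the 6 at 70.8 to 169 CPM at day 2 and 96.2 to 164 CPM at day 6. The part of other cell types in these differences was not tested.

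**Figure D3:**
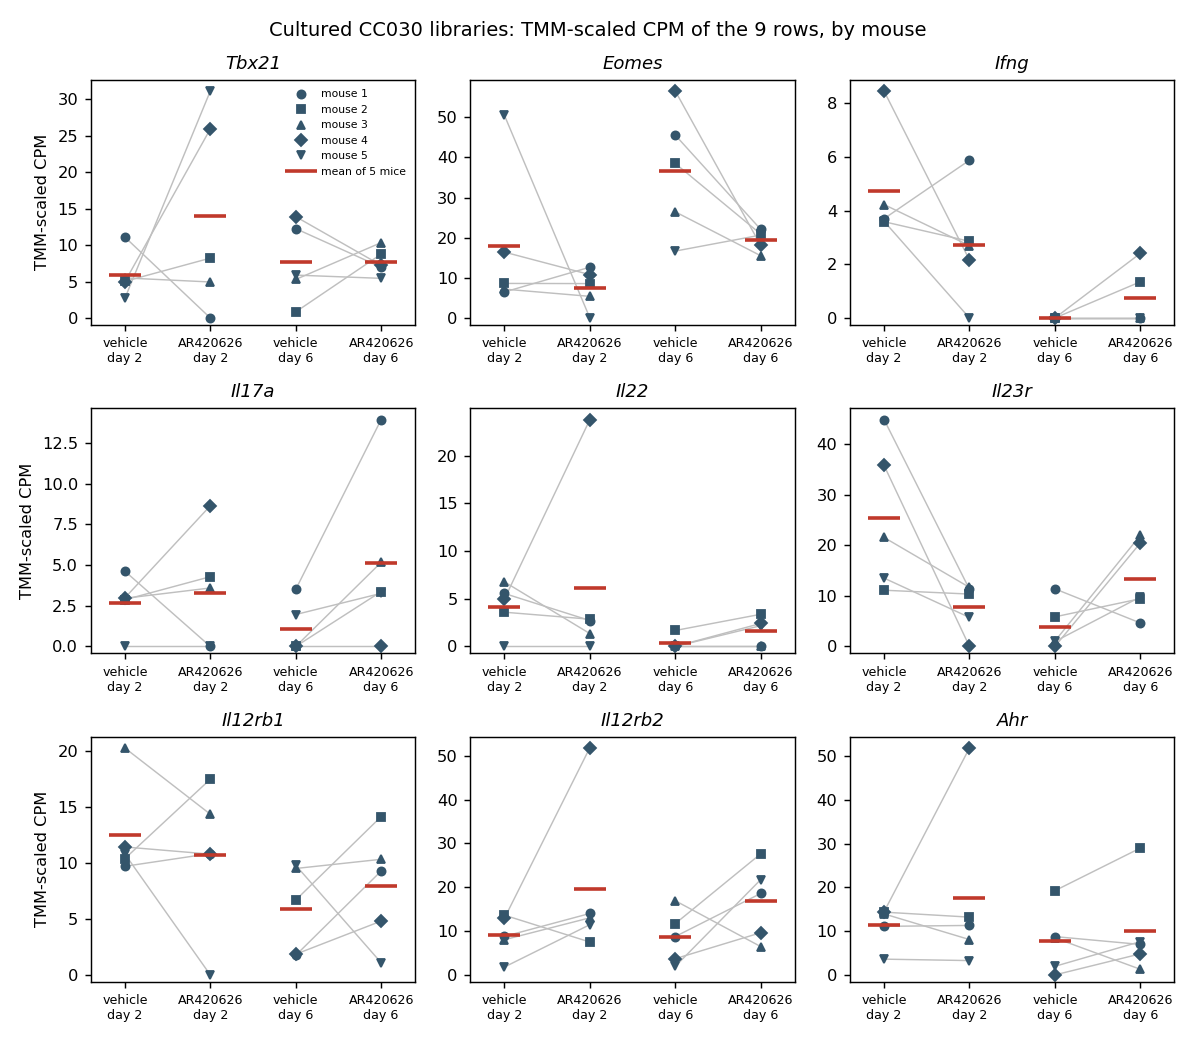
TMM-scaled CPM (vertical axis, linear) under each of the 9 symbols in the 20 cultured CC030 libraries, by group on the horizontal axis, with a marker shape for each mouse, grey lines joining vehicle and AR420626 of a mouse on the same day, and red bars for the mean of 5 mice. Il23r lies at 11.1 to 44.9 CPM in vehicle at day 2 and at 0 to 11.4 CPM at day 6, and Ifng is at 0 in all 5 vehicle libraries at day 6.

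Between day 2 and day 6 with AR420626, none of the 6 genes tested was called, beside 10.0% of 14731 rows called higher and 1.14% lower. Of the 6, 0 had an unadjusted p under 0.05 by edgeR, and DESeq2 called 0. Eomes was higher at day 6 in 5 of 5 mice, with 12.7, 8.57, 5.39, 10.8 and 0 CPM at day 2 and 22.1, 20.9, 15.5, 18.1 and 20.7 CPM at day 6, and did not pass (1.34 ± 0.72 on the log2 scale, SE, edgeR adjusted p = 0.261, and −0.08 when scaled by library totals). Klrb1c was again higher, 1 of 2 higher among 15 tested genes of the ILC1 and NK cell program with none lower. Of 14 tested ILC3 and type 17 genes Ltb alone was higher and none was lower.

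At day 2 no effect of AR420626 was detectable in the 6 of the 9 genes tested. Il23r stood at 11.3, 10.4, 11.7, 0 and 5.74 CPM with AR420626, lower than with vehicle in 5 of 5 mice and with the groups overlapping. The difference was −1.56 ± 0.65 on the log2 scale (SE, n = 5 mice; edgeR adjusted p = 1). The other 5 genes tested lay between −0.82 ± 0.91 for Eomes and 0.85 ± 0.57 for Il12rb2 (log2, SE). No row of 20865 was called higher or lower, which is 0% in either direction. By edgeR 403 rows had an unadjusted p under 0.05, among them 1 of the 6 genes. DESeq2 called 15 rows, none of them among the 9 genes. The AR420626 library of mouse 4 at day 2 was the shallowest of the series at 227445 counts. There Il12rb2 and Ahr each had 24 counts, which is 51.9 CPM and the highest level of either gene in the cultured libraries.

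In the comparison of AR420626 with vehicle at day 6, 7 of the 9 rows were too low to test. Between 4 and 7 of the 9 rows had a count in each vehicle library and between 7 and 9 in each AR420626 library. Ifng had 0, 2, 0, 2 and 0 counts with AR420626 and 0 in every vehicle library. Il17a had 12, 5, 4, 0 and 3 counts with AR420626 against 4, 0, 0, 0 and 2 with vehicle, and Il22 had 0, 5, 0, 2 and 2 against 0, 2, 0, 0 and 0. Il23r had 4, 14, 17, 17 and 9 counts against 13, 7, 1, 0 and 1, higher in mice 2 to 5 and lower in mouse 1. Tbx21 had 6, 13, 8, 6 and 5 counts against 14, 1, 5, 15 and 6, with no common direction. All these counts are small, and the groups overlapped for each of the 5 genes.

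Il12rb2 and Eomes were tested at day 6, and neither was called by edgeR or DESeq2, beside 3.30% of 9421 rows called higher and 8.14% called lower. Of these 2 genes, 1 had an unadjusted p under 0.05 by edgeR. Il12rb2 had 18.6, 27.6, 6.46, 9.63 and 21.8 CPM with AR420626 against 8.76, 11.7, 16.9, 3.71 and 1.96 CPM with vehicle. Il12rb2 was higher in 4 of 5 mice and lower in mouse 3, by 1.34 ± 0.62 on the log2 scale (SE, edgeR adjusted p = 0.165), and without mouse 3 by 1.97 (edgeR adjusted p = 0.0323). Eomes had 22.1, 20.9, 15.5, 18.1 and 20.7 CPM with AR420626 against 45.6, 38.5, 26.4, 56.5 and 16.7 CPM with vehicle. Eomes was lower in 4 of 5 mice, by 0.54 ± 0.37 on the log2 scale (SE, edgeR adjusted p = 0.369). Library totals differed between the groups, at 1143405 to 3420893 counts for vehicle and 1080761 to 1420240 for AR420626.

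A few other genes of the lists were lower with AR420626 at day 6, where 8.14% of all rows were called lower. Il18r1 fell by 2.13 ± 0.29 and Il18rap by 1.59 ± 0.36 (log2, SE, n = 5 mice; edgeR adjusted p = 7.08e-06 and 0.00299), the 2 of 11 tested ILC1 and NK cell genes called, with none higher. Ltb fell by 1.16 ± 0.26 (edgeR adjusted p = 0.00300), the 1 of 9 tested ILC3 and type 17 genes called. Arnt fell by 0.71 ± 0.23 (edgeR adjusted p = 0.0412), the 1 of 5 tested genes of the AHR pathway. These rows carry the same uncertainty of position as the 9 genes. The summed NK cell and ILC1 markers were at 121 to 187 CPM with vehicle and 127 to 157 CPM with AR420626.

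Whether the AR420626 effect differed between days was tested in all 20 libraries, and none of the 7 genes tested was called, beside 0.0389% of 23141 rows called higher and 0.0130% lower. Il23r showed the smallest p of the 7, at 3.51 ± 0.99 on the log2 scale (SE, edgeR adjusted p = 0.360). Il23r with AR420626 was below vehicle in 5 of 5 mice at day 2 and above vehicle in 4 of 5 at day 6. Of the 7, Il23r alone had an unadjusted p under 0.05, and DESeq2 called 0.

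**Figure D4:**
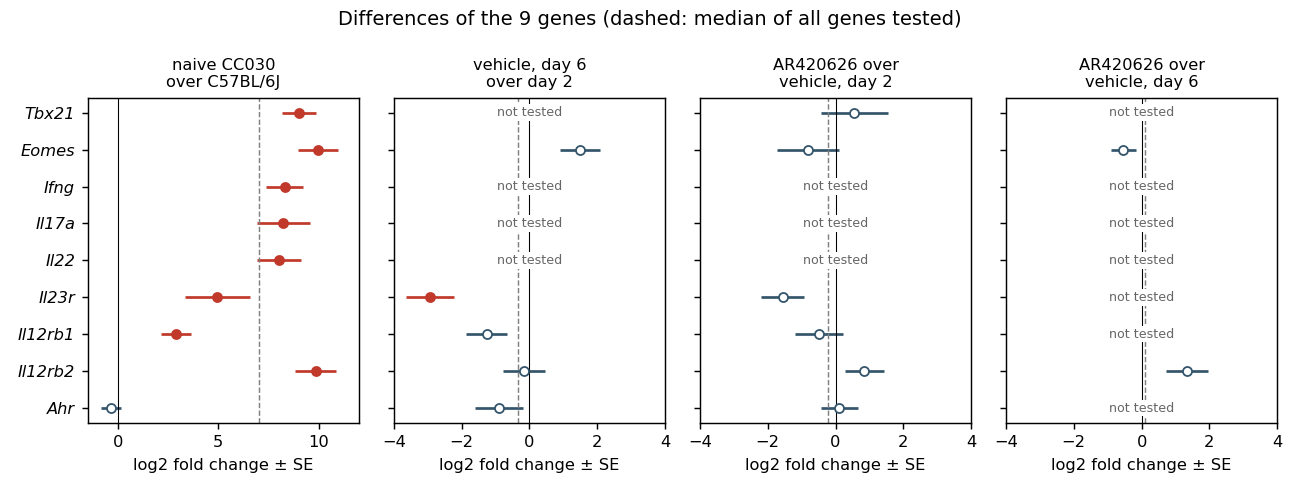
Log2 fold changes with standard errors (horizontal axis) of the 9 genes in 4 comparisons by edgeR, filled red where the adjusted p was under 0.05 and open where it was not, with a dashed line at the median of all rows tested. In the strain comparison 8 genes are filled around a median of 7.03, in vehicle culture Il23r alone is filled at −2.93, and with AR420626 none is filled. Genes at 0 in C57BL/6J could only be higher in CC030, and their fitted values depend on the prior count and are no bounds.

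The rows that moved most like each gene over the 20 cultured libraries were found by Pearson correlation of log2 CPM. Il23r went with the zinc finger genes Zfp628 (r = 0.91) and Zbtb45 (0.88), and Eomes with the keratin gene Krt78 (0.94) and Gm43937 (0.90). Il12rb1 went with Ptpn13 (0.90) and Itih4 (0.89), Il12rb2 with Ptprk (0.85) and Rufy3 (0.84), and Ahr with Cntnap5a (0.88). Tbx21 went with Retn (0.79) and the antisense gene Gm16351 (0.69). None of these nearest rows belongs to the ILC1, ILC3, AHR or receptor signaling lists. The libraries share mice and differ in depth, and the nearest row was sought among all rows kept, so these values are a description. Ifng and Il17a had at least 10 counts in only 4 and 3 of the 20 libraries, and Il22 did not pass the filter, so that no likeness was computed for them.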

How the data were processed

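RNA-seq of sorted lung ILC2s was available for 3 naïve C57BL/6J, 3 naïve CC030 and 20 cultured CC030 libraries, grouped by their deposited labels, with libraries made by a kit for very low input. Reads were trimmed with fastp and assessed with FastQC, then aligned with STAR, C57BL/6J to mm10 and CC030 to an mm9 pseudogenome whose alignments were converted to mm10 positions by lapels. The deposited values are the raw counts per gene that the authors obtained with HTSeq, neither normalized nor filtered. The counting options and annotation are not given in the sources used here. Totals per library stand at the start of the results, and precision is limited by them.

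Symbols and positions came from GENCODE vM21 on GRCm38, and promoters from RefSeq. The summary rows of HTSeq were left out of library sizes. Rows were kept by filterByExpr (minimum count 10, minimum total 15), scaled by TMM and tested with edgeR 4.0.16 in R 4.3.3 (quasi-likelihood F-test, robust, Benjamini-Hochberg adjustment at 0.05 over all rows kept). In culture the mouse was a block, since the labels give the same 5 mice in each group. Same-mouse deviations correlated between −0.369 and 0.347. Shifts were scanned in bins of 1 kb over 4 Mb to each side. CPM (counts scaled to 1000000) used library totals times TMM factors. Alternatives were DESeq2 1.42.0, its size factors, library totals alone, no filter, a strict filter of at least 10 counts throughout, the block changed, and each replicate left out, and, added after the data were seen, mice 4 and 5 left out and other libraries or half-windows for the position check.

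All 9 genes were followed in every comparison, with up to 4 genes of each list by smallest p and genes at the shifted positions. Others were named after their values were seen: markers, receptors, kinases and AHR targets in the C57BL/6J account, list members beside small counts, and Gata3, Sftpc and Lyz2. The 9 genes and the lists were chosen with earlier results of these data known. A few genes that the rule names are left out of the text.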

Additional observations from a re-analysis of the deposited data

Results flagged for a closer look

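In 8 of 35 groups of 5 cultured libraries, 1 library stood far above the other 4 of its group. The rule used flags about 1 in 20 groups by chance only where values are normally distributed and groups are independent. Many of these counts are low, and 3 of the 8 flagged values share 1 library. Whether 8 of 35 exceeds chance therefore cannot be decided. The flagged values at day 2 with vehicle were Eomes at 50.5 CPM in mouse 5, Ifng at 8.46 CPM in mouse 4 and Il12rb1 at 20.3 CPM in mouse 3. At day 2 with AR420626 they were Il22 at 23.8 CPM, Il12rb2 at 51.9 CPM and Ahr at 51.9 CPM, and all 3 came from mouse 4, the library with 227445 counts in genes, in which they rest on 11, 24 and 24 counts. At day 6 they were Il22 at 1.67 CPM with vehicle, which is 2 counts, and Ahr at 29.0 CPM with AR420626, both in mouse 2. The cause of these values was not tested.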

How the results depend on the processing

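The 6 comparisons gave 71 alternative counts of calls among the 9 genes, of which 64 were within 1.5 times the value reported and 7 were not. In the strain comparison 1 gene in place of 8 was called where at least 10 counts were required in every library, a filter that removes rows at 0 in C57BL/6J, and 3573 rows in all. Replicate numbers do not pair mice of the 2 strains, since same-numbered libraries correlated between −0.011 and 0.0018. With a replicate block 7 of the 9 genes were called there, and Il12rb1 lost its call at 3.05. The value of Ahr turned to 0.26 with DESeq2 and with its size factors, 0.86 with library totals and 0.48 with the strict filter, and none of these passed the test. For vehicle at day 6 against day 2 the count of genes called was 2 with no filter and without mice 4 and 5, where Eomes was called at 2.41, and 0 with the strict filter, which leaves Il23r out, and it ranged from 0 to 2 with 1 mouse left out, the 0 coming without mouse 1, where Il23r did not pass the filter on low counts. At day 6 AR420626 against vehicle called 0 to 1 of the genes with 1 mouse left out. Without the mouse block no call among the 9 genes changed in the cultured comparisons.

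Values near 0 changed sign. For AR420626 at day 2, with 1 mouse left out, Tbx21 ranged from −0.09 to 1.40, Il12rb1 from −0.89 to 0.05 and Ahr from −0.30 to 0.34. Tbx21 was −0.09 without mouse 5 and −0.82 without mice 4 and 5. Eomes was 0.21 without mice 4 and 5. Il12rb1 was 0.29 on library totals, 0.05 without mouse 5 and 0.14 without mice 4 and 5. Ahr was −0.30 without mouse 4 and −0.27 without mice 4 and 5. For vehicle over time, Il12rb2 ranged from −0.58 to 0.25 with 1 mouse left out and was 0.41 without mice 4 and 5. Eomes with AR420626 over time was −0.08 on library totals. The cause was not tested.

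Of all rows, the day 6 comparison called 1078 and 604 to 1221 with 1 mouse left out, and the split of higher calls moved from 28.8% to 46.3% on library totals. At day 2 DESeq2 and the fit with no filter called 15 each in place of 0. Vehicle over time called 2742, with 994 to 5376 with 1 mouse left out and 4337 without mice 4 and 5, and higher calls went from 78.5% to 63.1% on library totals. AR420626 over time called 1647, against 2806 by DESeq2, 6152 on library totals, 3458 without mice 4 and 5 and 253 to 2772 with 1 mouse left out, and higher calls went from 89.8% to 12.2% on library totals, where the median of all rows moved from −0.26 to −1.61. The difference between days called 12, against 75 by DESeq2, 20 with no filter, 6 with the strict filter, 2 with no replicate block, 59 without mice 4 and 5 and 0 to 33 with 1 mouse left out. A shift stood apart for 0 genes in naïve CC030 and in vehicle cultures at day 2, 3 in AR420626 cultures at day 2, 5 and 4 in vehicle and AR420626 cultures at day 6, and 1 or 4 with the lower or higher coordinates alone. The mean of Ahr in C57BL/6J was 22.1 CPM on library totals. Low counts kept 7 of the 9 genes out of the test of AR420626 at day 6 and 3 at day 2.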
